A study of Mus musculus with 71 samples.

Results

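The 7 genes *Il2ra*, *Il2rb*, *Il2rg*, *Il4ra*, *Il21r*, *Il18r1* and *Il18rap* encode receptor chains of the interleukin-2 and interleukin-18 families, and they were taken by symbol from the gene expression tables of a mouse study of the domains of Pax5. All 7 were present among the 25579 genes of the pro-B and progenitor table and among the 24420 genes of the table of early lymphoid and T-lineage stages. Pax5 is the transcription factor that commits lymphoid progenitors to the B cell lineage, and the study asked which of its domains are required for gene activation, gene repression and B cell development. RNA sequencing gave 48 of the 71 samples of the series, 31 of them from pro-B cells or progenitors of 14 *Pax5* genotypes or gates and 17 from early lymphoid stages, all sorted from C57BL/6 mice. Expression was read as TPM, a unit that scales each gene by its length and each library by its size.

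*Il2rg* encodes the common γ chain, which is shared by the receptors for several interleukins, and *Il2ra* (CD25) and *Il2rb* complete the high-affinity receptor for IL-2. *Il4ra* and *Il21r* encode the ligand-specific chains for IL-4 and IL-21, and all of these receptors signal through JAK kinases and STAT factors. *Il18r1* and *Il18rap* encode the ligand-binding chain and the accessory chain of the IL-18 receptor, which signals through MyD88, IRAK kinases and TRAF6. In the thymus CD25 marks the DN2 and DN3 stages of T cell development, and it is also used as a marker of pre-B cells in the bone marrow.

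In GRCm38 coordinates, *Il18r1* (chr1:40465552-40500854) and *Il18rap* (chr1:40515362-40551707) lie side by side on chromosome 1, and *Il4ra* (chr7:125552271-125579474) and *Il21r* (chr7:125603252-125634397) lie side by side on chromosome 7. *Il2ra* lies on chromosome 2 (chr2:11642792-11693194), *Il2rb* on chromosome 15 (chr15:78479256-78511621) and *Il2rg* on the X chromosome (chrX:101264385-101268255). The start regions of *Il2ra*, *Il18r1* and *Il18rap* are shown because these 3 genes differed most between *Pax5* genotypes. The sequences are from RefSeq (GRCm38.p6, plus strand), each ends 50 bases after a start site, and capitals mark GGAAGT (the core of ETS factor sites) or TGTGGT (the core of Runx sites) on either strand.
Il2ra, chr2:11642542-11642841: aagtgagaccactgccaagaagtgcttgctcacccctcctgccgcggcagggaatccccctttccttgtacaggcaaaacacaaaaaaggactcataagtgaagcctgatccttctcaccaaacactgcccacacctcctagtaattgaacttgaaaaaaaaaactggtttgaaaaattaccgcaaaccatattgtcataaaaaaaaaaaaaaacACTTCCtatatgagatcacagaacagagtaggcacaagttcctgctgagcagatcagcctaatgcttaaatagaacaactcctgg
Il18r1, chr1:40465419-40465601: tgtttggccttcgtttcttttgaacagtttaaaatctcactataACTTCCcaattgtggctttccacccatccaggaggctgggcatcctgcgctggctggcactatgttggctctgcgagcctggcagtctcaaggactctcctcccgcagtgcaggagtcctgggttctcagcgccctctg
Il18rap, chr1:40515112-40515411: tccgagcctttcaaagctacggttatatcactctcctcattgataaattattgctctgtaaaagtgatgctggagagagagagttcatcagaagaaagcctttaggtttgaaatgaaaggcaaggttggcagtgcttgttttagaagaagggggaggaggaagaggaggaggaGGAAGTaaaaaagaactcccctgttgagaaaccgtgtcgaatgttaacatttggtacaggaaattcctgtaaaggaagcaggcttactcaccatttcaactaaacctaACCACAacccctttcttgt
The *Il18r1* stretch leaves out the first 117 bases of its window, which belong to the end of the gene *Il1rl1*. GGAAGT stood 35 bases before the start of *Il2ra*, 89 bases before the first start of *Il18r1* and 77 bases before the start of *Il18rap*, and it occurs in 23.8% of the 32851 mouse promoter windows of the same length (both strands). GGAAGT was added to the search after these sequences had been looked at. TGTGGT stood 31 bases after the start of *Il18rap* and is held by 16.8% of all windows. No window of the 6 members with a RefSeq entry held the letters GCGTGAC from the Pax5 recognition sequence, which 2.09% of windows hold, or GGGANTTCC of NF-κB sites, which 1.68% hold. At shares this low, absence is the usual outcome for so few windows, and binding of Pax5 was not tested. TTCNNNGAA, the letters of a STAT site, was found 2 times before the third start of *Il18r1* and is held by 8.3% of windows.

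The wild-type *Pax5* +/+ pro-B cells (n = 5) were compared with pro-B cells homozygous for a deletion of the octapeptide (∆OP/∆OP), of the partial homeodomain (∆HD/∆HD) or of both (∆OP,HD/∆OP,HD), which are the central domains of Pax5. C-terminal deletions removed CRD1, CRD2 or both. CRD1 is encoded by exons 8 and 9 and holds the earlier described transactivation domain with a short extension. CRD2, in exon 10, is a shortened form of the earlier described inhibitory domain. According to the study, CRD1 and CRD2 both take part in activation as well as in repression. Each deletion was studied in the homozygous state (∆CRD1/∆CRD1, ∆CRD2/∆CRD2, ∆CRD1,2/∆CRD1,2) and over a null allele (∆CRD1/-, ∆CRD2/-, ∆CRD1,2/-). Progenitors without Pax5 came from Vav-Cre *Pax5* fl/fl mice, in which Vav-Cre deletes the floxed gene from the hematopoietic stem cell stage onward in all blood cells. A second experiment compared Vav-Cre *Pax5* fl/+ pro-B cells, Vav-Cre *Pax5* fl/fl progenitors and Vav-Cre *Pax5* Prd/fl progenitors, whose only remaining allele encodes the paired domain, and all 3 of these groups carry Vav-Cre. Each mutant group had 2 samples.

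The gates differed between these groups. Wild-type, ∆CRD1/- and ∆CRD2/- pro-B cells were sorted with a gate for pro-B cells (B220+ Kit+), whereas ∆CRD1,2/- cells and progenitors of the Vav-Cre *Pax5* fl/fl genotype came from a gate for Ly6D+ B220+ Kit-high cells without the lineage antigens of T, NK, myeloid and erythroid cells. The fl/fl and Prd/fl progenitors of the second experiment are labelled as sorted with an alternative gate, and the gate of the ∆CRD1,2/∆CRD1,2 cells is not given in the sources used here. For ∆CRD1,2/-, fl/fl and Prd/fl cells, the genotype and the gate cannot be told apart. In these sorted populations, a change in the share of cells that express a gene and a change in the RNA per cell cannot be told apart either. The labels do not say which samples came from separate mice, so that p-values measure the spread between samples, which may be technical.

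The gene-level value of *Pax5* does not check the deletions, because it also counts the exons outside the deleted parts. Reads recovered from the TPM values put the depth at 10018678 to 43784791 reads per pro-B or progenitor library. The wild-type samples 1, 2 and 5, the ∆CRD1/∆CRD1 samples and the fl/fl samples of the first experiment had been sequenced with 50-nt reads, and all other pro-B and progenitor samples with 100-nt reads. *Il2ra* was 4.44, 15.4 and 7.77 TPM in the wild-type samples with 50-nt reads and 1.53 and 3.30 TPM in those with 100-nt reads. *Il2rb* was 0.185, 0.415 and 0.355 TPM in the former and 1.11 and 2.45 TPM in the latter. For both genes the 2 read lengths did not overlap within the wild type, so the models that mix read lengths hold a term for it. The authors trimmed all reads to 50 bases before alignment, so this term marks 2 sets of libraries rather than the length of the aligned reads. What else differed between the 2 sets was not tested. Each mutant group had a single read length, so this term was estimated from the wild-type samples alone. A fitted difference from the wild type thus rests on the wild-type samples of the same read length, 3 with 50-nt and 2 with 100-nt reads. Between mutant groups of different read length, the fitted difference also holds that between the 2 sets of wild-type samples.

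**Figure D1:**
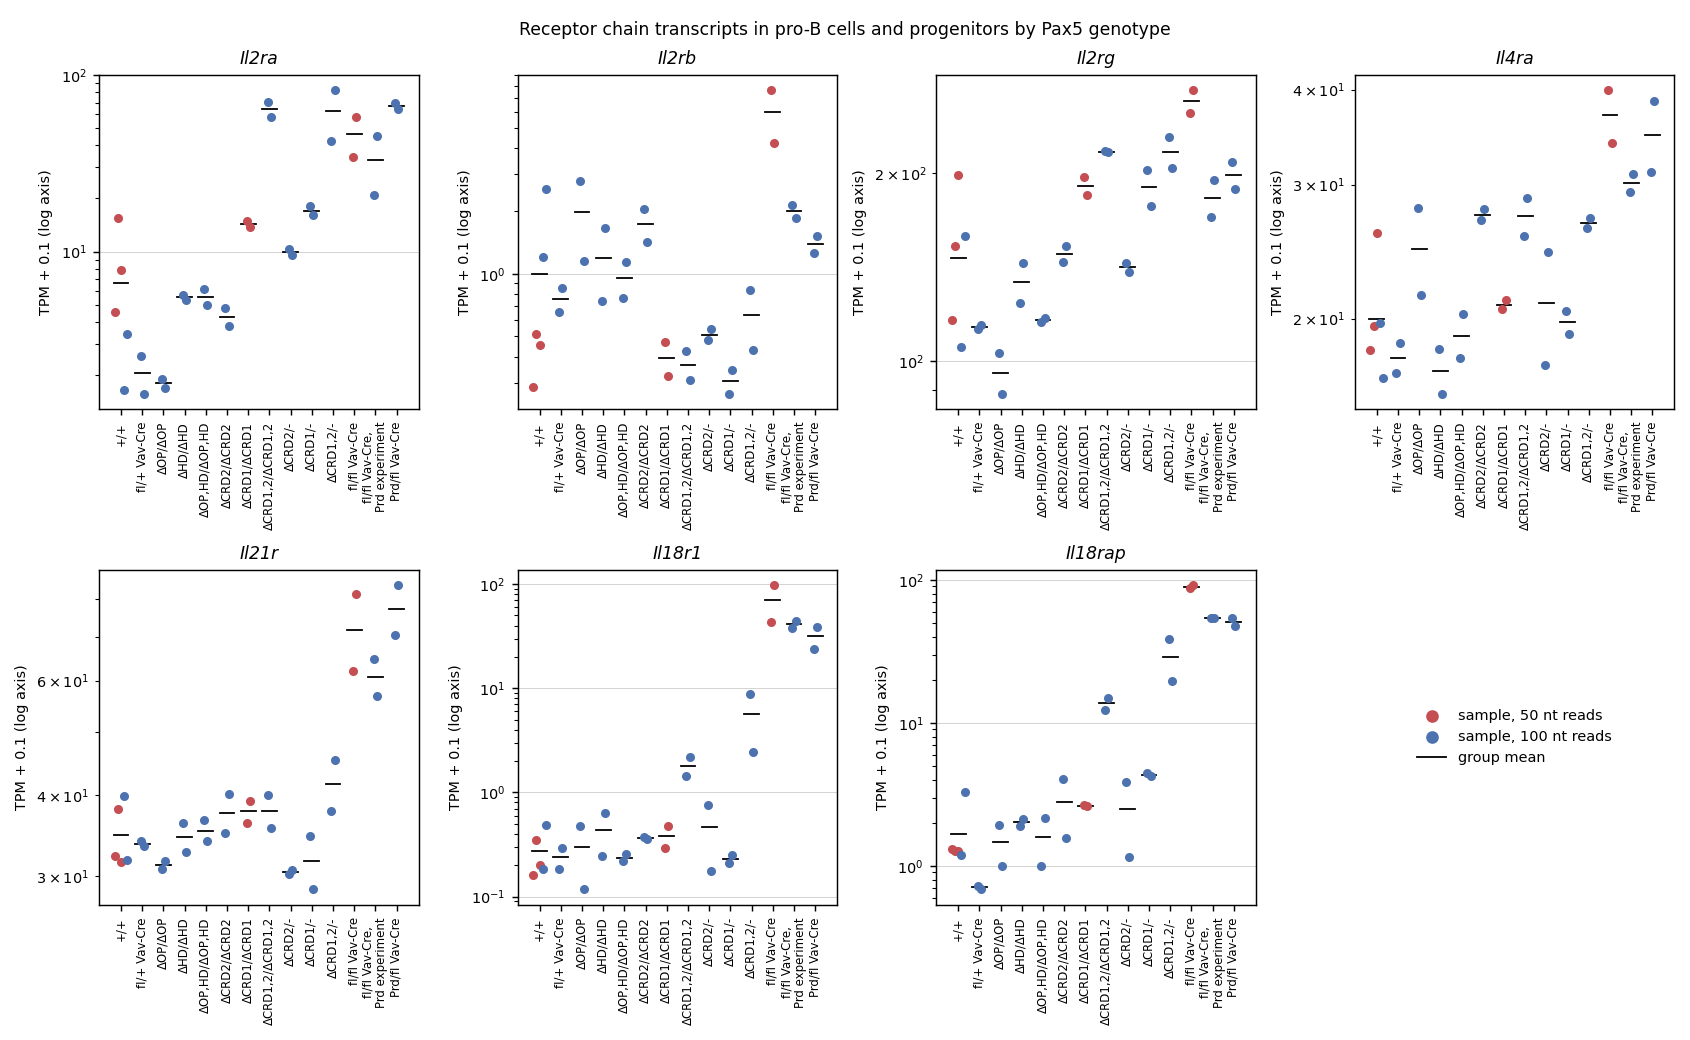
TPM + 0.1 (log axis) of the 7 receptor genes in every pro-B and progenitor library, by *Pax5* genotype. Each point is 1 library (red, 50-nt reads and blue, 100-nt reads) and each black bar is a group mean. *Il18r1* and *Il18rap* are near the floor in wild-type cells and reach 97.7 and 91.8 TPM in fl/fl progenitors, while *Il2rg*, *Il4ra* and *Il21r* move within a narrow range.

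The receptor genes differed in level before any comparison. In wild-type pro-B cells, *Il2rg* had the highest level with a mean of 146 TPM ± 37.1 (SD, n = 5), followed by *Il21r* with 34.6 TPM ± 3.96 and *Il4ra* with 19.9 TPM ± 3.50. *Il2ra* averaged 6.49 TPM ± 5.49, *Il18rap* 1.57 TPM ± 0.913, *Il2rb* 0.901 TPM ± 0.932 and *Il18r1* 0.176 TPM ± 0.137. The *Il18r1* values of the wild type rest on 3 to 26 reads per library and those of *Il2rb* on 5 to 94 reads. Wild-type pro-B cells thus held ample RNA for the common γ chain and for the IL-4 and IL-21 chains, and little for the IL-2 β chain and the IL-18 chains.

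In progenitors without Pax5, all 7 genes were higher than in wild-type pro-B cells. They passed an adjusted p of 0.05 in limma (Benjamini-Hochberg over all genes tested, which holds for every adjusted p given for these tables), in a comparison in which 31.7% of all genes tested were called and 17.1% were called higher. In this model *Il18r1* exceeded 1 TPM, the limit for testing, only in ∆CRD1,2/- and fl/fl libraries. It thus entered the count of 7 through groups in which it was high. The median log2 difference of the 7 genes was 2.44, against 0.01 for all genes. The 7 genes were chosen with earlier results of these data known, so the count and the median are a description. The size of the difference ranged from less than 2-fold for *Il2rg* to 288-fold for *Il18r1*. Over 24 fits, which are the reported fit and its alternatives, the log2 difference of *Il18r1* was between 5.86 and 8.98. The alternatives include other values added before taking logs, and wild-type *Il18r1* rests on 3 to 26 reads per library.

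The IL-18 receptor chains rose most. *Il18r1*, the ligand-binding chain, was 0.0627, 0.252, 0.1002, 0.0842 and 0.382 TPM in the wild-type samples and 42.9 and 97.7 TPM in the fl/fl progenitors. The groups were far apart, with a fitted log2 difference of 8.17 ± 0.76 (SE) on the log2(TPM + 0.1) scale and an adjusted p of 1.423e-05 in limma. *Il18rap*, the accessory chain, was 1.21, 1.18, 1.18, 1.09 and 3.20 TPM in the wild type and 87.4 and 91.8 TPM in the fl/fl progenitors, a log2 difference of 6.12 ± 0.51 (adjusted p = 6.349e-06, limma) or 69.7-fold. Both chains reached similar levels in the progenitors, where the ratio of *Il18rap* to *Il18r1* was 2.04 and 0.940, whereas in wild-type pro-B cells it was between 4.68 and 19.2.

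The IL-2 receptor chains also rose. *Il2ra* was 34.1 and 58.1 TPM in fl/fl progenitors, above each wild-type sample (1.53 to 15.4 TPM), and the difference after the read length term was 2.44 ± 0.49 in log2 or 5.43-fold (adjusted p = 0.00295, limma). *Il2rb*, the signalling β chain, was 7.56 and 4.17 TPM against 0.185 to 2.45 TPM, a log2 difference of 3.82 ± 0.51 or 14.1-fold (adjusted p = 1.995e-04, limma). *Il2rg* was 249 and 272 TPM in fl/fl progenitors and 116, 153, 199, 105 and 158 TPM in the wild type, a log2 difference of 0.78 ± 0.22 (adjusted p = 0.0177, limma). The groups of *Il2rg* did not overlap, but the call was lost without fl/fl replicate 1 (adjusted p = 0.0698, limma) or fl/fl replicate 2 (0.113), and among the samples with 50-nt reads alone (0.0518).

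The chains for IL-4 and IL-21 rose by amounts close to that of *Il2rg*. *Il4ra* was 39.9 and 34.0 TPM in fl/fl progenitors and 18.1, 19.4, 25.8, 19.6 and 16.6 TPM in the wild type, a log2 difference of 0.82 ± 0.19 (adjusted p = 0.00776, limma, and 0.0762 without fl/fl replicate 1). *Il21r* was 61.9 and 81.5 TPM against 32.1, 38.0, 31.5, 39.8 and 31.7 TPM, a log2 difference of 1.07 ± 0.17 (adjusted p = 6.318e-04, limma). For both genes, every fl/fl sample was above every wild-type sample.

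Loss of both C-terminal domains over a null allele gave a subset of these differences. In ∆CRD1,2/- cells, 4 of the 7 genes were higher than in wild-type pro-B cells and none was called lower, against 20.2% of all genes called in either direction and 7.96% called higher. Among the 4 was *Il18r1*, which exceeded 1 TPM in this model only in ∆CRD1,2/- and fl/fl libraries. *Il2ra* was 42.2 and 82.7 TPM, a log2 difference of 4.65 ± 0.54 or 25.2-fold (adjusted p = 1.628e-04, limma). It was called in all 24 fits (the reported fit and its alternatives), with log2 differences between 2.42 and 5.18 (3.57 without the read length term). *Il18rap* was 38.2 and 19.7 TPM, a log2 difference of 3.80 ± 0.56 or 13.9-fold (adjusted p = 7.796e-04), and *Il18r1* was 8.69 and 2.35 TPM, a log2 difference of 3.96 ± 0.84 (adjusted p = 0.00682, limma). Every ∆CRD1,2/- value of these 3 genes was above every wild-type value.

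The call of *Il18r1* was lost without ∆CRD1,2/- replicate 1, with a log2 difference of 3.04 (adjusted p = 0.0757, limma), and without wild-type replicate 3, with 3.27 (adjusted p = 0.0613). *Il2rg* passed with 229 and 204 TPM, a log2 difference of 0.74 ± 0.24 (adjusted p = 0.0476, limma), but its adjusted p was 0.300 without wild-type replicate 3, and the call was lost in 14 of 24 fits. *Il4ra*, at 26.2 and 27.0 TPM (adjusted p = 0.0922), *Il21r*, at 37.7 and 45.1 TPM (adjusted p = 0.471), and *Il2rb*, at 0.736 and 0.331 TPM (log2 difference −1.54, adjusted p = 0.0777), did not pass in limma, and edgeR on the recovered reads called *Il2rb* lower (adjusted p = 0.0482).

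The test of ∆CRD1,2/- cells against fl/fl progenitors passed for *Il2rb* alone of the 7 genes, with 2.02% of all genes called. *Il2rb* was higher in fl/fl progenitors by 5.36 ± 0.76 in log2 or 41.1-fold (adjusted p = 0.00632, limma), a fitted value that includes the read length term, because the ∆CRD1,2/- libraries had 100-nt and the fl/fl libraries 50-nt reads. Without that term it was 3.25 (adjusted p = 0.0309). *Il18r1* was 4.21 higher in log2 (adjusted p = 0.0900) and *Il18rap* 2.33 (adjusted p = 0.165), and neither passed in limma with the read length term. Without that term *Il18r1* (log2 difference 3.81, adjusted p = 0.0125) and *Il21r* (0.78, adjusted p = 0.0185, against 0.86 and 0.120 with it) passed. *Il2ra* overlapped between the groups, with a log2 difference of −2.21 (adjusted p = 0.167, limma) that passed in edgeR (adjusted p = 0.0482).

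The single deletions were also studied over a null allele. In ∆CRD1/- pro-B cells, 2 of the 7 genes were called, against 8.51% of all genes tested. *Il2ra* was 17.9 and 16.1 TPM, above all wild-type samples, with a log2 difference of 2.86 ± 0.54 or 7.25-fold (adjusted p = 0.00729, limma). *Il2rb* was 0.165 and 0.245 TPM, within the wild-type range of 0.185 to 2.45 TPM at its upper value and below it at its lower, and its log2 difference after the read length term was −2.54 ± 0.56 (adjusted p = 0.0170, limma). Both calls rest on the read length term: without it the log2 difference was 1.78 for *Il2ra* (adjusted p = 0.0934) and −1.27 for *Il2rb* (adjusted p = 0.283). The *Il2ra* call was also lost without wild-type replicate 3 (2.33, adjusted p = 0.0774) or either ∆CRD1/- replicate (0.0739 and 0.0543), and the *Il2rb* call without wild-type replicate 4 (adjusted p = 0.110) or either ∆CRD1/- replicate (0.138 and 0.0726).

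*Il18r1* was 0.108 and 0.153 TPM in ∆CRD1/- cells, inside the wild-type range. *Il18rap* was 4.34 and 4.14 TPM, above the highest wild-type value of 3.20 TPM, and its log2 difference of 1.13 did not pass (adjusted p = 0.288, limma). In a fit with the replicate number as a block, without wild type 3 to 5 and the read length term, which sets 100-nt mutant against 50-nt wild-type reads, the log2 difference of *Il18rap* was 1.76 (adjusted p = 0.0232) and that of *Il2ra* 0.63 (adjusted p = 0.295). ∆CRD1,2/- cells were higher than ∆CRD1/- cells in both IL-18 receptor chains, by 4.34 ± 0.84 in log2 for *Il18r1* (adjusted p = 0.0243, limma) and 2.67 ± 0.56 for *Il18rap* (adjusted p = 0.0361), with 2.17% of all genes called. These samples all had 100-nt reads, but the gates differed, and the *Il18r1* call was lost without ∆CRD1/- replicate 1 (adjusted p = 0.194), ∆CRD1/- replicate 2 (0.158) or ∆CRD1,2/- replicate 1 (0.214). The *Il18rap* call was lost in 11 of 24 fits, with log2 differences between 2.19 and 3.14 over all of them. *Il2ra* was 1.79 higher in log2 in ∆CRD1,2/- than in ∆CRD1/- cells (95% confidence interval 0.61 to 2.98), which did not pass in limma (adjusted p = 0.135) and passed in edgeR on the recovered reads (adjusted p = 0.0282).

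In ∆CRD2/- pro-B cells, limma and edgeR called 0 of the 7 genes, against 0.513% of all genes. *Il2ra* was 10.3 and 9.44 TPM, higher than the wild-type samples with the same read length (1.53 and 3.30 TPM) and inside the range of those with 50-nt reads. Its log2 difference was 2.08 (95% confidence interval 0.90 to 3.27) and did not pass in limma (adjusted p = 0.177). *Il2rb* was 0.381 and 0.440 TPM, with a log2 difference of −1.78 (adjusted p = 0.307). These 2 genes were the only ones of the 7 with an unadjusted p below 0.05. The 2 ∆CRD2/- samples differed in *Il18r1* (0.662 and 0.0775 TPM) and *Il18rap* (3.74 and 1.06 TPM), and the sample with the higher values was also the one with the highest sum over the granulocyte and macrophage markers of all libraries (11284 TPM, against 475 to 5083 TPM in the wild type). The part of other cells in these values was not tested.

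**Figure D2:**
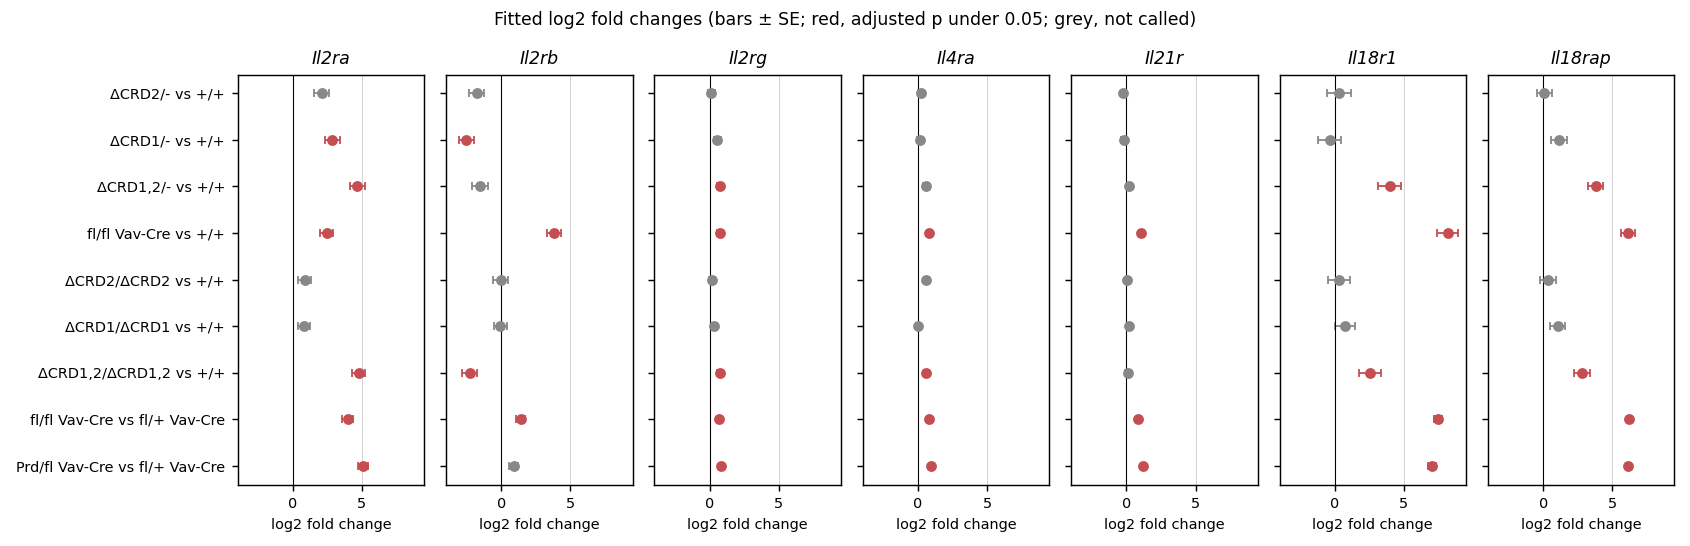
Fitted log2 fold changes (points) with standard errors (bars) of the receptor genes in 9 comparisons, on the log2(TPM + 0.1) scale (limma). Red points passed an adjusted p of 0.05 and grey points did not. *Il18r1* and *Il18rap* lie farthest to the right in the comparisons of fl/fl and Prd/fl progenitors, and *Il2ra* in those of cells without both CRD domains.

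The same deletions were measured in the homozygous state. In ∆CRD1,2/∆CRD1,2 cells, 5 of the 7 genes were called higher and 1 lower, against 10.2% and 14.4% of all genes, or 24.6% in either direction. Among the 5 was *Il18r1*, which exceeded 1 TPM in this model only in the double deletions. *Il2ra* was 70.3 and 58.0 TPM, 4.76 ± 0.48 in log2 or 27.2-fold above the wild type (adjusted p = 1.240e-05, limma). It was called in all 28 fits, with log2 differences between 2.53 and 5.30 (3.68 without the read length term). *Il18rap* was 12.3 and 14.9 TPM, a log2 difference of 2.78 ± 0.59 (adjusted p = 0.00397, and 0.0548 without wild-type replicate 3). *Il18r1* was 1.33 and 2.09 TPM, above all wild-type samples, with a log2 difference of 2.57 ± 0.80 (adjusted p = 0.0316, limma). The *Il18r1* call was lost without wild-type replicate 3, with a log2 difference of 1.88 (adjusted p = 0.208), without ∆CRD1,2/∆CRD1,2 replicate 1 (0.0783) or replicate 2 (0.167).

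The other chains moved less in these cells. *Il2rg* was 217 and 216 TPM, above all wild-type samples, with a log2 difference of 0.74 ± 0.21 (adjusted p = 0.0218, limma) that fell to 0.45 without wild-type replicate 3 (adjusted p = 0.215) and lost its call without ∆CRD1,2/∆CRD1,2 replicate 1 or 2 as well (0.0982 and 0.0983). *Il4ra* was 25.6 and 28.7 TPM, with a log2 difference of 0.58 ± 0.19 (adjusted p = 0.0378), overlapping the wild type, and lost its call in 10 of 28 fits. *Il21r* was 39.9 and 35.5 TPM and did not pass (adjusted p = 0.745). *Il2rb* was 0.325 and 0.207 TPM, inside the wild-type range but below the wild-type samples with 100-nt reads, with a log2 difference of −2.28 ± 0.55 (adjusted p = 0.00861, limma). That call, too, rests on the read length term (−1.01 without it, adjusted p = 0.277), and it was lost without wild-type replicate 4 (−1.74, adjusted p = 0.0733) or ∆CRD1,2/∆CRD1,2 replicate 2 (0.0649).

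limma and edgeR called 0 receptor genes in ∆CRD1/∆CRD1 and ∆CRD2/∆CRD2 pro-B cells, where limma called 8.16% and 0.0956% of all genes, and the unadjusted p was below 0.05 for 0 and for 1 of the 7 genes (*Il4ra*). In ∆CRD1/∆CRD1 cells, *Il2ra* was 14.7 and 13.6 TPM, overlapping the wild-type samples of the same read length (4.44 to 15.4 TPM, adjusted p = 0.330), and *Il18rap* was 2.58 and 2.50 TPM (log2 difference 1.04, adjusted p = 0.302). In ∆CRD2/∆CRD2 cells, *Il4ra* was 26.8 and 27.8 TPM, just above the wild-type maximum of 25.8 TPM, with a log2 difference of 0.59 (adjusted p = 0.429, limma). Compared with ∆CRD1/∆CRD1 cells, ∆CRD1,2/∆CRD1,2 cells were higher in *Il2ra* by 3.97 ± 0.64 in log2 or 15.7-fold (adjusted p = 0.00763, limma, with 1.71% of all genes called). This call, between libraries with different read lengths, was lost without ∆CRD1/∆CRD1 replicate 2 (adjusted p = 0.0530) and without the read length term (2.16, adjusted p = 0.0581). *Il18rap* was also higher in both ∆CRD1,2/∆CRD1,2 samples (12.3 and 14.9 TPM) than in both ∆CRD1/∆CRD1 samples (2.58 and 2.50 TPM), with a log2 difference of 1.75 that did not pass with the read length term (adjusted p = 0.325) and of 2.37 that passed without it (adjusted p = 0.0221).

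The hemizygous and homozygous double deletions were then compared with each other, with limma and edgeR calling 0 of the 7 genes, limma calling 0.228% of all genes, and 0 of the 7 having an unadjusted p below 0.05. *Il18r1* was 1.39 higher in log2 in ∆CRD1,2/- cells (95% confidence interval −0.33 to 3.11), *Il18rap* 1.01 higher (−0.26 to 2.29) and *Il2ra* 0.11 lower (−1.14 to 0.92). These intervals leave room for differences of several fold. The *Il18r1* and *Il18rap* values of the groups (8.69 and 2.35 against 1.33 and 2.09 TPM, and 38.2 and 19.7 against 12.3 and 14.9 TPM) did not overlap. The test whether the effect of removing CRD2 in addition to CRD1 differed between the hemizygous and the homozygous state passed for none of the 7 genes, with adjusted p between 0.697 and 0.918 in limma. Unadjusted p were below 0.05 for *Il2rb* and *Il2ra*.

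Deletion of the central domains moved none of the receptor genes past the threshold. In this comparison 6 of the 7 genes were tested, because *Il18r1* did not exceed 1 TPM in any of its 8 libraries (0.0175 to 0.529 TPM), and only the 2 wild-type samples with 100-nt reads entered. limma and edgeR called 0 of the 6 genes in each mutant, against 0.485% of all genes in ∆OP/∆OP, 0.639% in ∆HD/∆HD and 1.22% in ∆OP,HD/∆OP,HD cells. *Il2ra* was 5.58 and 5.23 TPM in ∆HD/∆HD and 6.04 and 4.87 TPM in ∆OP,HD/∆OP,HD cells, above the 1.53 and 3.30 TPM of the wild type, with a log2 difference of 1.23 in each (adjusted p = 0.243 and 0.202, limma, with an unadjusted p below 0.05 in both). In ∆OP/∆OP cells it was 1.80 and 1.58 TPM, within the wild-type values. *Il4ra* (27.8 and 21.4 TPM, log2 difference 0.43, adjusted p = 0.242) and *Il2rg* (103 and 88.4 TPM, log2 difference −0.44, adjusted p = 0.249) were the other genes with an unadjusted p below 0.05, both in ∆OP/∆OP cells. No further unadjusted p below 0.05 was found among the 6 genes.

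The second experiment measured a Pax5 protein reduced to its paired domain, with all libraries at 100 nt. Against Vav-Cre *Pax5* fl/+ pro-B cells, the fl/fl progenitors were higher in all 7 genes, with 20.8% of all genes called higher. *Il18r1*, *Il18rap* and *Il2rb* were under 1 TPM, the limit for testing, in both fl/+ samples. They thus entered this count only through the progenitor groups, in which they were higher. *Il18r1* was 0.0857 and 0.190 TPM in fl/+ cells and 37.8 and 44.5 TPM in fl/fl progenitors, a log2 difference of 7.47 ± 0.30 or 177-fold (adjusted p = 2.794e-05, limma). That difference was between 5.21 and 8.22 over 15 fits, which include other values added before taking logs. *Il18rap* was 0.628 and 0.587 TPM and then 53.7 and 53.6 TPM, a log2 difference of 6.25 ± 0.12 or 76.1-fold (adjusted p = 1.258e-05). Each fl/fl value of both chains lay far above both fl/+ values.

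*Il2ra* was 2.45 and 1.45 TPM in fl/+ cells and 20.9 and 45.2 TPM in fl/fl progenitors (log2 difference 3.95 ± 0.38, adjusted p = 4.932e-04, limma). *Il2rb* was 0.557 and 0.753 TPM in fl/+ cells and 2.03 and 1.76 TPM in fl/fl progenitors (1.41 ± 0.32, adjusted p = 0.0143), and lost its call without fl/+ replicate 1 (0.0844), fl/fl replicate 1 (0.0837) or fl/fl replicate 2 (0.0543). The smaller differences of *Il2rg* (113 ± 1.25 and 183 ± 17.7 TPM, SD, n = 2, log2 difference 0.68, adjusted p = 0.00211), *Il4ra* (17.7 ± 1.11 and 30.1 ± 1.17 TPM, 0.76, adjusted p = 0.00449, and 0.0516 without fl/+ replicate 1) and *Il21r* (33.5 ± 0.407 and 60.6 ± 5.67 TPM, 0.85, adjusted p = 0.00196) passed as well in limma. All 5 of these genes were higher in both fl/fl samples than in both fl/+ samples, which is a description, because the share of all genes separated in this way was not counted.

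Progenitors with the paired domain alone resembled the fl/fl progenitors in level. Prd/fl cells were higher than fl/+ cells in 6 of the 7 genes, with 24.1% of all genes called higher and 40.7% called in either direction. Among the 6, *Il18r1* and *Il18rap* were again testable only through the progenitor groups. *Il18r1* was 23.9 and 38.8 TPM in Prd/fl cells (log2 difference 7.04, adjusted p = 3.674e-05, limma, 132-fold), *Il18rap* 54.3 and 47.2 TPM (6.16, adjusted p = 7.907e-06, 71.7-fold) and *Il2ra* 69.2 and 64.5 TPM (5.07, adjusted p = 1.778e-04, 33.6-fold). The log2 difference of *Il18r1* was between 4.79 and 7.78 over 15 fits. *Il2rb* was 1.16 and 1.42 TPM, above both fl/+ values, but did not pass (log2 difference 0.89, adjusted p = 0.0667). *Il2rg* (199 TPM ± 14.2), *Il4ra* (34.8 TPM ± 5.25) and *Il21r* (77.2 TPM ± 9.71, SD, n = 2) had log2 differences of 0.81, 0.97 and 1.19, each called.

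Between Prd/fl and fl/fl progenitors, limma and edgeR called 0 of the 7 genes and limma 1.97% of all genes. The difference in log2 was −0.43 for *Il18r1* (95% confidence interval −1.16 to 0.30) and −0.08 for *Il18rap* (−0.38 to 0.21). *Il2ra* was higher in both Prd/fl samples than in both fl/fl samples, with a log2 difference of 1.12 (0.21 to 2.03, adjusted p = 0.192, limma), and *Il21r* had a log2 difference of 0.35 (adjusted p = 0.190). These were the 2 genes with an unadjusted p below 0.05.

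Over all 31 libraries, *Il2ra*, *Il18r1* and *Il18rap* split into non-overlapping ranges. The 10 libraries of ∆CRD1,2, fl/fl and Prd/fl cells had 20.9 to 82.7 TPM of *Il2ra*, 1.33 to 97.7 TPM of *Il18r1* and 12.3 to 91.8 TPM of *Il18rap*, and the 21 other libraries 1.45 to 17.9 TPM, 0.0175 to 0.662 TPM and 0.587 to 4.34 TPM. The order within the 10 libraries differed by gene. Group means of *Il2ra* were highest in Prd/fl (66.8 TPM), ∆CRD1,2/∆CRD1,2 (64.1 TPM) and ∆CRD1,2/- cells (62.4 TPM), followed by both groups of fl/fl progenitors (46.1 and 33.0 TPM), and neighbours in this order overlapped. Means of *Il18rap* were highest in the fl/fl progenitors of the first experiment (89.6 TPM), followed by those of the second (53.7 TPM), Prd/fl (50.8 TPM), ∆CRD1,2/- (29.0 TPM) and ∆CRD1,2/∆CRD1,2 cells (13.6 TPM). *Il18r1* followed the order 70.3, 41.2, 31.3, 5.52 and 1.71 TPM over the same groups. The double deletions thus ranked above the fl/fl progenitors in mean *Il2ra* and below them in both IL-18 receptor chains, and their ratio of *Il18rap* to *Il18r1* (4.40 and 8.38 in ∆CRD1,2/-, 9.20 and 7.14 in ∆CRD1,2/∆CRD1,2) was above that of every fl/fl and Prd/fl library (0.940 to 2.27). *Il2rg* (88.4 to 203 against 170.0 to 272 TPM), *Il4ra* (15.8 to 27.8 against 25.6 to 39.9 TPM), *Il21r* (28.5 to 40.0 against 35.5 to 84.1 TPM) and *Il2rb* (0.165 to 2.69 against 0.207 to 7.56 TPM) overlapped between the same sets.

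Markers of other cells moved with these groups. The summed level of 5 plasmacytoid dendritic cell genes was 258 to 503 TPM in the fl/fl progenitors of the first experiment, 94.4 to 140 TPM in those of the second, 31.8 to 47.1 TPM in ∆CRD1,2/- cells and 6.64 to 40.0 TPM in the wild type, and 4 of the 5 genes were called higher in fl/fl than in wild-type cells. The fl/fl sample with the higher *Il18r1* (97.7 TPM) was also the one with the higher *Siglech* (195 against 70.6 TPM), whereas *Il18rap* was nearly equal in both samples (91.8 and 87.4 TPM). With 2 samples, such a match is a description. Of 10 T-lineage genes, summed at 510 to 565 TPM in fl/fl progenitors and 138 to 176 TPM in the wild type, 7 were tested and 4 called higher. *Lck* made up most of that sum (336 to 354 TPM), and the defining T cell genes *Cd3e* and *Ptcra* stayed at or below 0.385 and 0.407 TPM in fl/fl progenitors. Of 12 NK and innate lymphoid genes (66.1 to 97.7 TPM in fl/fl, 25.1 to 47.3 TPM in the wild type), 4 of 6 tested were called higher, while *Ncr1*, *Eomes* and *Tbx21* were at or below 0.719, 0.629 and 0.852 TPM and *Gzmb* was at 0. Of the granulocyte and macrophage (9), erythroid (5) and mast cell and basophil (5) markers, 0 were called higher in fl/fl than in wild-type cells and 2, both erythroid, were called lower. In the second experiment, 6 of the 9 granulocyte and macrophage markers and 4 of the 5 plasmacytoid dendritic cell markers were called higher in fl/fl progenitors than in fl/+ cells. The summed B-lineage markers of the first experiment fell from between 14541 and 18580 TPM to between 5049 and 5753 TPM. The part of other cells in the receptor levels was not tested.

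The genes next to the IL-18 receptor pair on chromosome 1 include further members of the IL-1 receptor family and a pair of sodium/proton exchangers. Of 9 neighbours, 6 could be tested against the wild type. *Il1r2*, the decoy receptor for IL-1, and *Slc9a2*, a sodium/proton exchanger, were called higher in fl/fl progenitors and in ∆CRD1,2/- cells. *Slc9a2* had means of 0.450 TPM in the wild type, 13.1 TPM in ∆CRD1,2/- cells (log2 difference 4.66, adjusted p = 8.008e-05, limma) and 16.3 TPM in fl/fl progenitors (4.88, adjusted p = 1.178e-05), and in ∆CRD1/- cells it was also called (2.85 TPM, 2.43, adjusted p = 0.0104). *Il1r2* had means of 0.603, 8.54 and 8.72 TPM in the wild type, ∆CRD1,2/- and fl/fl cells (adjusted p = 0.0164 and 0.00325). *Il1r2* and *Slc9a2* thus shared with *Il18r1* and *Il18rap* the rise in both cell types, but they reached in ∆CRD1,2/- cells means close to those in fl/fl progenitors. In the second experiment the same 2 genes were called higher in fl/fl and in Prd/fl progenitors, of 5 tested.

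**Figure D3:**
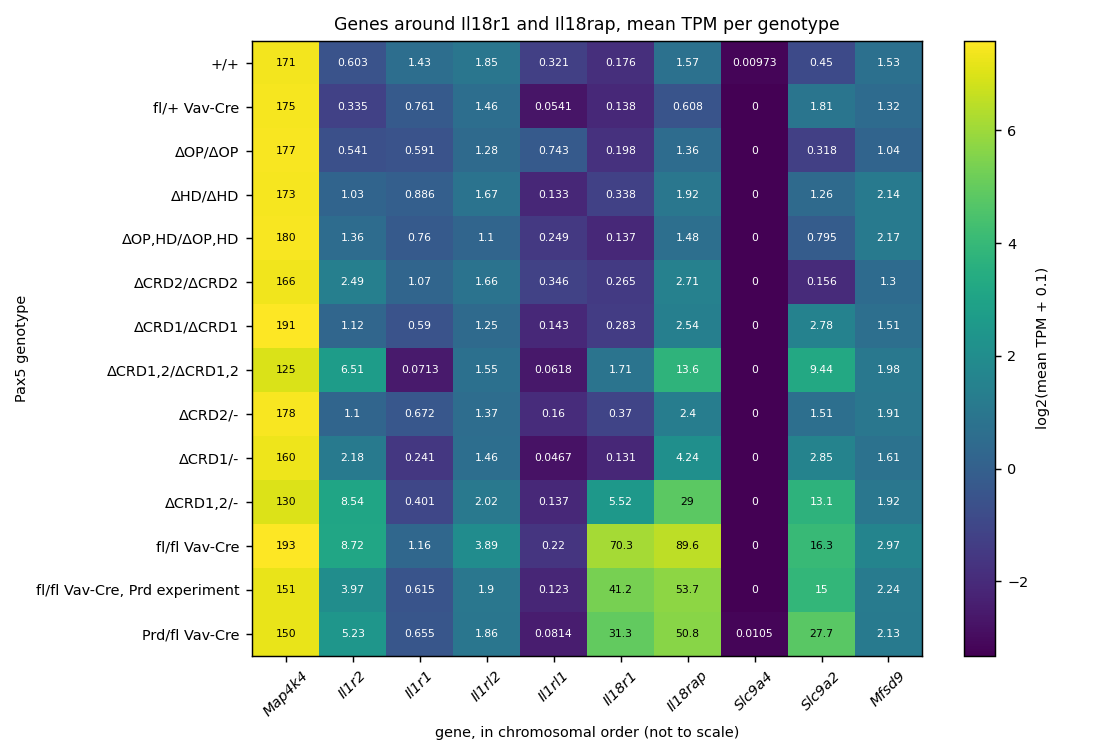
Heat map of the mean TPM of *Il18r1*, *Il18rap* and their neighbours in chromosomal order (distances not to scale), by *Pax5* genotype, with colour as log2(mean TPM + 0.1). *Il1r2*, *Il18r1*, *Il18rap* and *Slc9a2* are brightest in the double-deletion, fl/fl and Prd/fl groups, where *Slc9a2* reaches 27.7 TPM in Prd/fl progenitors against 1.81 TPM in fl/+ cells.

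Among the neighbours of the other receptor genes, few were called. Next to *Il4ra* and *Il21r*, *Gsg1l* was the gene that was called among 4 neighbours, and it was lower, from a mean of 2.29 TPM in the wild type to 0 in ∆CRD1,2/- cells and 0.0331 TPM in fl/fl progenitors (log2 difference −4.10, adjusted p = 4.609e-05, limma). Next to *Il2ra*, *Il15ra*, the gene of the private IL-15 receptor chain, rose in fl/fl progenitors from 7.87 to 15.4 TPM (0.99, adjusted p = 0.0118), while *Pfkfb3* was lower (log2 difference −0.41, adjusted p = 0.0109) and the other 3 of 5 did not pass. None of the tested neighbours of *Il2rb* (4) and *Il2rg* (3) was called in fl/fl progenitors or in ∆CRD1,2/- cells.

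Of 12 other receptor chains of the same families, 9 were tested against the wild type. In ∆CRD1,2/- cells, where 7.96% of all genes were called higher, 3 were called higher and 0 lower: *Il7r*, the IL-7 receptor chain that B cell precursors depend on, from 172 to 263 TPM (log2 difference 1.25, adjusted p = 0.0171, limma), *Il9r*, from 0.288 to 2.86 TPM (3.02, adjusted p = 0.00879), and *Il1r2*. In fl/fl progenitors, where 17.1% of all genes were called higher, 3 were higher as well, namely *Il15ra*, *Il1r2* and *Sigirr*, a negative regulator of IL-1 family receptors (0.54, adjusted p = 0.0158). The median log2 difference of the tested chains was 0.54 in fl/fl progenitors, beside 2.44 for the 7 genes described here. Both sets were chosen with earlier results of these data known, so the medians are a description. Of the 9 cytokine genes of these receptors 3 were tested, and none was called higher in either group. *Il18* fell in ∆CRD1,2/- cells from 4.96 to 1.66 TPM (log2 difference −1.78, adjusted p = 0.0178), and *Il18bp*, which encodes the secreted inhibitor of IL-18, fell in ∆CRD1,2/- cells (log2 difference −1.28, adjusted p = 0.0291) and in fl/fl progenitors (−1.18, adjusted p = 0.0190).

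Genes of the signalling steps changed in both directions. Of 16 JAK-STAT genes, 2 rose and 3 fell in fl/fl progenitors and 0 rose and 4 fell in ∆CRD1,2/- cells, where 31.7% and 20.2% of all genes were called, so the shares of the list were near those of all genes. *Socs1* (from 11.9 to 30.3 TPM, log2 difference 0.95, adjusted p = 0.0206) and *Socs2* (from 34.5 to 76.1 TPM, 1.05, adjusted p = 0.00333), inhibitors that STAT factors induce, rose in fl/fl progenitors, and *Irs2*, an adaptor of the IL-4 receptor, fell from 33.4 to 8.10 TPM (−2.26, adjusted p = 1.256e-05, limma). In ∆CRD1,2/- cells *Irs2* fell to 6.15 TPM (−1.97, adjusted p = 1.628e-04), and *Stat3*, *Shc1* and *Gab2* fell as well. Of 9 genes of the MyD88 route, 2 rose and 2 fell in fl/fl progenitors. The kinase gene *Irak1* rose from 56.2 to 119 TPM (0.96, adjusted p = 4.675e-04), and *Irak3*, which encodes an inhibitory member of the same family, fell from 27.3 to 9.78 TPM (−1.55, adjusted p = 1.144e-04). *Irak2* rose and *Traf6* fell in the same cells, and in ∆CRD1,2/- cells *Irak1* rose while *Irak3* and *Traf6* fell. In the second experiment *Socs1*, *Socs2*, *Irak1* and *Irak2* were again called higher, and *Irs2*, *Gab2*, *Irak3* and *Traf6* lower, in both fl/fl and Prd/fl progenitors than in fl/+ cells.

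The early lymphoid table followed the receptor genes from lymphoid-primed multipotent progenitors (LMPP) of the bone marrow through the thymic stages DN1, DN2a, DN2b, DN3a and DN3b, all wild type, and in Rag2-/- DN3a cells, which cannot rearrange their T cell receptor genes. DN1, DN2a and DN2b had 3 samples each and the other groups 2. DN1 cells were sorted as CD25- CD44+ Kit-high, DN2a and DN2b cells as CD25+, and DN3 cells as CD25-high, with CD28 and CD71 separating DN3b from DN3a. These files give 2 values per gene that were averaged here, from another alignment and build than the pro-B table, so levels from the 2 tables are set side by side without a test. Defining T-lineage genes moved with stage, from a summed 126 TPM in LMPP to 1505 to 1782 TPM in DN1 and 6919 to 8910 TPM in DN2b cells.

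**Figure D4:**
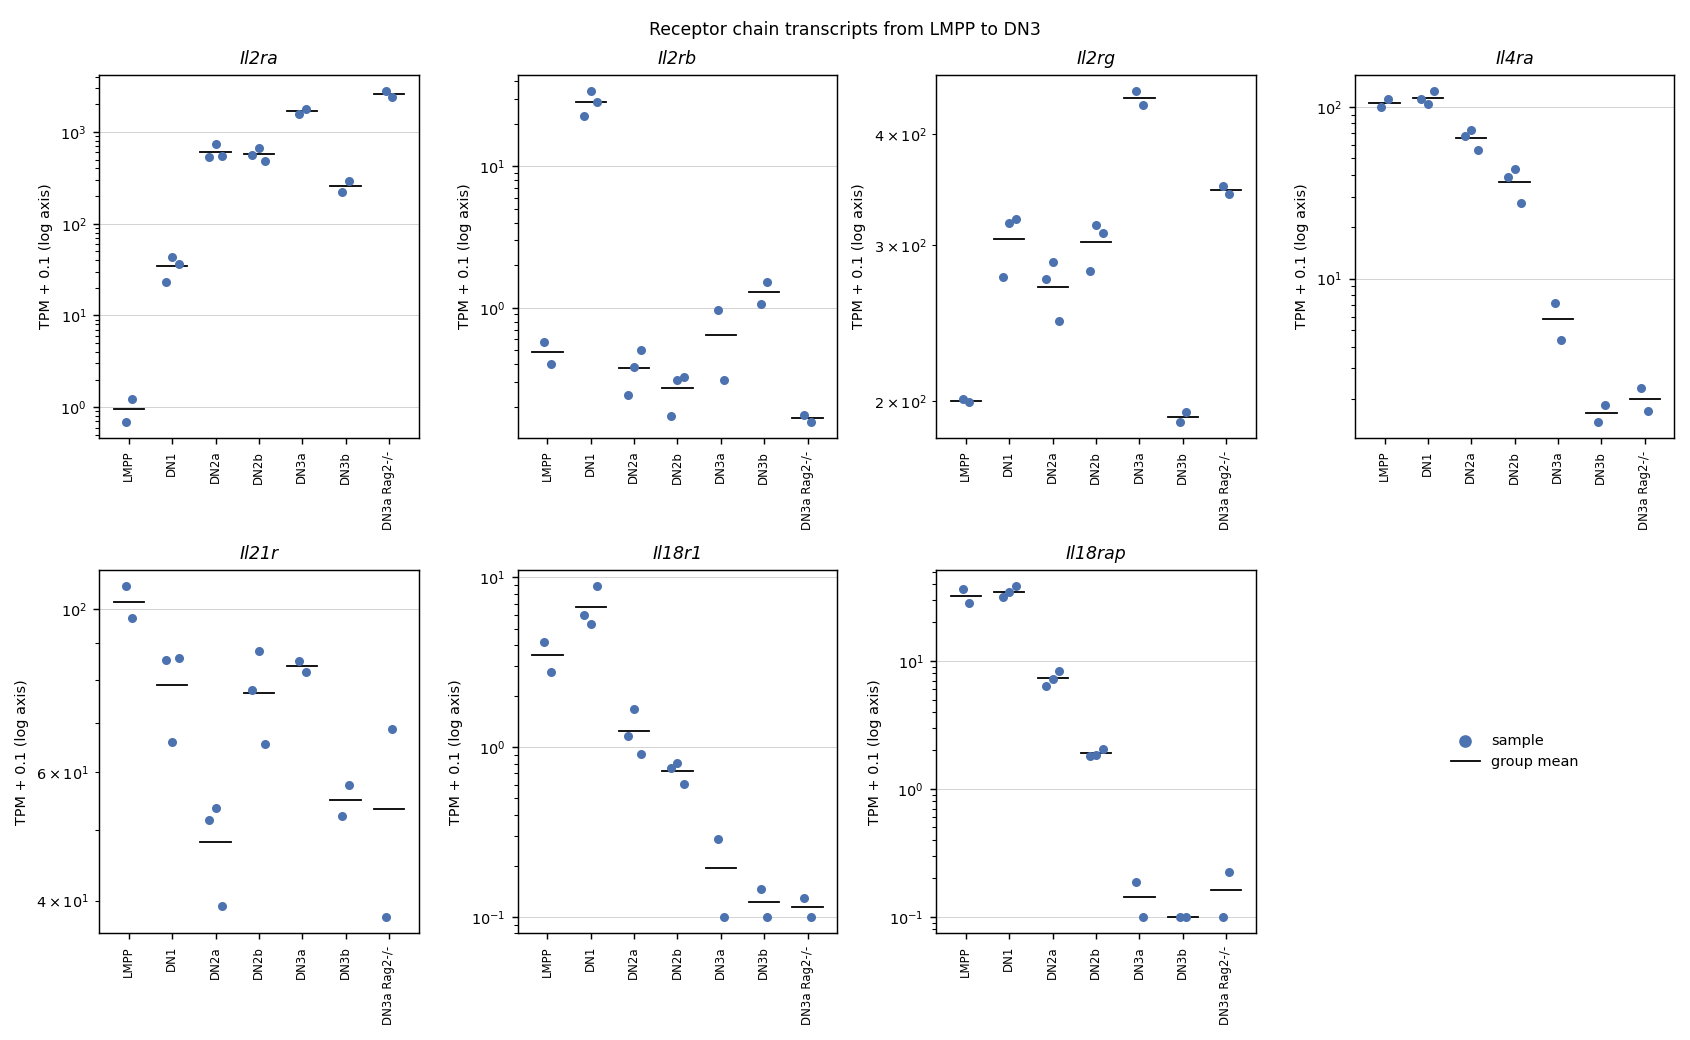
Level + 0.1 (log axis, mean of the 2 deposited values per gene) of the 7 receptor genes in each LMPP and thymic library, by stage. Each point is 1 library and each black bar a stage mean. *Il18r1* and *Il18rap* fall from DN1 to DN3, *Il2rb* peaks at DN1 (22.6 to 34.1), and *Il2ra* rises to 2789 in Rag2-/- DN3a cells.

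*Il2ra* encodes the CD25 by which the stages were sorted, so its levels are a description. It was 0.598 and 1.13 TPM in LMPP, 23.1, 43.4 and 36.5 TPM in DN1, 528, 738 and 548 TPM in DN2a, 556, 664 and 484 TPM in DN2b, 1573 and 1768 TPM in DN3a and 221 and 290 TPM in DN3b cells. In Rag2-/- DN3a cells it was 2789 and 2415 TPM, above both wild-type DN3a samples. DN2a and DN2b overlapped, and all other neighbours in the order of levels did not. The 10 pro-B and progenitor libraries with high *Il2ra* (20.9 to 82.7 TPM) thus had values around those of DN1 cells and below those of every CD25-sorted stage.

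*Il2rb* was high at DN1, and no library of another stage exceeded 1.43 TPM. It was 0.470 and 0.298 TPM in LMPP, 22.6, 34.1 and 28.4 TPM in DN1 and 0.141, 0.283 and 0.399 TPM in DN2a cells. The rise from LMPP to DN1 was 5.88 ± 0.47 in log2 or 58.9-fold (adjusted p = 8.304e-07, limma, with 18.6% of all genes called) and the fall to DN2a was 6.29 (log2 difference −6.29, adjusted p = 2.376e-07, with 33.7% of genes called and 22.9% called lower). DN3b cells (0.969 and 1.43 TPM) did not differ from DN3a cells (0.870 and 0.208 TPM) past the threshold (adjusted p = 0.0600). The summed NK and innate lymphoid markers were 750.1 to 842 TPM in DN1 cells, of which *Nkg7* made up 729 to 819 TPM. Of the 12 markers, 7 exceeded 1 TPM in at least 1 DN1 sample, against 2 in LMPP and 4 in DN2a cells. *Ncr1*, *Klrk1* and *Eomes* were at or below 0.0613, 0.222 and 0.564 TPM in DN1 cells. The DN1 gate leaves out cells that stain for NK1.1, among other lineage antigens, and the part of other cells in the DN1 level of *Il2rb* was not tested. The 4.17 and 7.56 TPM of *Il2rb* in the fl/fl progenitors of the first experiment were below the DN1 values and above those of all other stages. In those of the second experiment it was 2.03 and 1.76 TPM, closer to the highest DN3b value of 1.43 TPM.

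The IL-18 receptor chains were present from LMPP to DN1 and fell from there. *Il18r1* was 4.09 and 2.68 TPM in LMPP, 5.89, 5.19 and 8.76 TPM in DN1, 1.07, 1.57 and 0.809 TPM in DN2a and 0.654, 0.709 and 0.506 TPM in DN2b cells. The fall from DN1 to DN2a was called (log2 difference −2.44, adjusted p = 4.064e-04, limma), and the steps from LMPP to DN1 (0.94, adjusted p = 0.169) and from DN2a to DN2b (−0.75, adjusted p = 0.212) were not. In DN3 cells, 3 of the 6 libraries listed *Il18r1* at 0 and the highest value was 0.188 TPM.

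*Il18rap* was 36.4 and 28.5 TPM in LMPP, 31.4, 34.6 and 38.2 TPM in DN1, 6.24, 7.19 and 8.33 TPM in DN2a and 1.72, 1.76 and 1.95 TPM in DN2b cells. LMPP and DN1 overlapped (adjusted p = 0.871), and the steps from DN1 to DN2a (log2 difference −2.25, adjusted p = 6.310e-05, limma), from DN2a to DN2b (−1.94, adjusted p = 2.920e-04, with 18.2% of all genes called) and from DN2b to DN3a (−3.81, adjusted p = 1.081e-06) were called. It was 0.0858 TPM and 0 in DN3a cells and listed at 0 in both DN3b samples, so the fitted size of the last step depends on the value added before taking logs. With 0.01 in place of 0.1 added, the step from DN2a to DN2b was −1.99 and lost its call (adjusted p = 0.116). *Il18rap* exceeded *Il18r1* in every LMPP, DN1, DN2a and DN2b library. The highest *Il18r1* values of the fl/fl and Prd/fl progenitors (up to 97.7 TPM) were thus above those of every stage here, of which DN1 was highest with 8.76 TPM, whereas *Il18rap* reached 38.2 TPM in DN1 and 91.8 TPM in fl/fl progenitors.

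*Il4ra* declined in level over the stages. It was 99.6 and 111 TPM in LMPP, 111.5, 104 and 123 TPM in DN1, 67.4, 73.0 and 55.8 TPM in DN2a, 38.9, 43.5 and 27.4 TPM in DN2b, 7.08 and 4.28 TPM in DN3a and 1.37 and 1.74 TPM in DN3b cells. Each step from DN1 on was called in limma, with log2 differences of −0.79 (adjusted p = 0.0120), −0.85 (adjusted p = 0.0113), −2.68 (adjusted p = 1.548e-06, with 45.8% of all genes called) and −1.77 (adjusted p = 6.544e-05, with 53.4% called). The median over all genes was 0.27 in the step from DN2b to DN3a and −0.41 in the step from DN3a to DN3b, so the fall of *Il4ra* went beyond it in both. The call of the first of these steps was lost without DN1 replicate 1 (adjusted p = 0.0518) or 1 of the 2 DN2a samples numbered 1 (0.0552), and the calls of the first and second were lost when samples with the same stage and number were averaged (0.0574 and 0.0630). In Rag2-/- DN3a cells *Il4ra* was 2.21 and 1.59 TPM, lower than in wild-type DN3a cells by 1.51 in log2 (log2 difference −1.51, adjusted p = 0.00113, with 26.4% of all genes called).

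*Il2rg* was present at every stage, at 189 TPM or more. It was 201 and 199 TPM in LMPP, 276, 318 and 320.5 TPM in DN1, 448 and 432 TPM in DN3a and 189 and 194 TPM in DN3b cells. The rise from LMPP to DN1 (log2 difference 0.60, adjusted p = 5.293e-04, limma) and the fall from DN3a to DN3b (−1.20, adjusted p = 9.124e-07) were called in every alternative fit. The rise from DN2b to DN3a (0.54, adjusted p = 6.142e-04) was 0.27 with median-ratio scaling (adjusted p = 0.0600), and the lower level in Rag2-/- DN3a cells (350 and 342 TPM, −0.35, adjusted p = 0.0304) was −0.16 (adjusted p = 0.322).

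*Il21r* showed no single direction. It was 107 and 97.1 TPM in LMPP, 85.1, 65.7 and 85.7 TPM in DN1, 51.4, 53.4 and 39.2 TPM in DN2a, 77.5, 87.5 and 65.5 TPM in DN2b, 85.0 and 82.0 TPM in DN3a and 52.1 and 57.5 TPM in DN3b cells. It fell from DN1 to DN2a (−0.72, adjusted p = 0.0137, limma) and rose to DN2b (0.68, adjusted p = 0.0265), but both calls depended on single samples, with adjusted p up to 0.0669 and 0.117 when a sample was left out. The fall from DN3a to DN3b (−0.61, adjusted p = 0.0461) was −0.33 with median-ratio scaling (adjusted p = 0.207) and was called in 16 of 30 fits.

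Rag2-/- DN3a cells also had lower *Il2rb* than wild-type DN3a cells (0.0742 and 0.0568 against 0.870 and 0.208 TPM, log2 difference −1.73, adjusted p = 0.0254, limma). All of these values were under 1 TPM, the limit for testing, so the gene was tested through other stages. The call was lost without wild-type DN3a replicate 1 (−0.90) and without Rag2-/- replicate 1 (−1.80) or 2 (−1.65). With 1 in place of 0.1 added before taking logs, it was lost as well (−0.50, adjusted p = 0.107, limma). *Il21r* (37.9 and 68.6 against 85.0 and 82.0 TPM, −0.71, adjusted p = 0.0429) was called in 14 of 29 fits and had a log2 difference of −0.28 without Rag2-/- replicate 1. Among the 6 genes tested, 4 were thus called lower in Rag2-/- cells, with 19.5% of all genes called lower, and of these only *Il4ra* was called in all 29 fits.

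As a description over the 31 pro-B and progenitor libraries, which share genotype groups, gates and read lengths, *Il18r1* and *Il18rap* followed each other most closely among pairs of the 7 genes (Pearson r = 0.95 of log2(TPM + 0.1)), followed by *Il21r* and *Il18r1* (0.89) and *Il2ra* and *Il2rg* (0.87). *Il2rb* had r between −0.06 and 0.54 with the other 6 genes. Over the 17 lymphoid libraries, which share stages, *Il18r1* and *Il18rap* again went together (r = 0.97), whereas *Il2ra* and *Il18rap* went in opposite directions (r = −0.72), although both were high in the pro-B table in the same libraries (0.84). Of 12154 genes searched in the pro-B table, those with the pattern most like *Il18r1* were *Clnk* (0.96) and *5830411N06Rik* (0.96), and those most like *Il18rap* were *Lat2*, *Ffar2* and *Plch1* (0.96 each). *Il2ra* was most like *Rgs18* (0.95), *Gpr174* and *Ggta1* (0.93 each). *Il2rg* was most like *Gnptab*, *Usp40* and *Samd9l* (0.93 each), *Il21r* like *Rassf2*, *Arhgap39* and *Gm6093* (0.92 each), *Il4ra* like *Casp9* (0.87), *Pld4* (0.85) and *H2-DMb1* (0.84), and *Il2rb* like *Plekha7*, *Fam234a* (0.81 each) and *Psap* (0.79). Over the lymphoid stages, with 11905 genes searched, *Il4ra* was most like *Cd44* and *Snx7* (0.99 each), *Il2ra* like *Gm17004* and *Ly6d* (0.99 each), *Il18rap* like *Dfna5* and *B3gnt7* (0.99 each), *Il18r1* like *Dusp6* and *Sh2d3c* (0.98 each), *Il2rb* like *Gdpd5* (0.96) and *Xdh* (0.94), *Il2rg* like *Slc39a6* (0.95) and *Tgfb3* (0.94), and *Il21r* like *Tanc2* (0.88) and *Galc* (0.87).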

How the data were processed

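Pro-B and progenitor RNA-seq values were deposited as TPM. According to the methods and the submitters' processing notes, the authors trimmed all reads to 50 bases, aligned them to GRCm38/mm10 with STAR 2.4.2a and counted reads per RefSeq gene with Rsubread. Of these files, 23 name their genes and 8 were read by the row order of a named file. The 17 lymphoid files (mm9, TopHat 1.4.1) hold 2 values per gene whose difference is not given in the sources used here. They were deposited as a signal on a TPM-like scale, their mean was used and is written as TPM, and a value of exactly 1, a placeholder, was read as 0. The ChIP-seq and ATAC-seq files of the series were not used here.

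Members were matched by symbol. limma 3.58.1 (R 4.3.3) was fitted to log2(TPM + 0.1), with a trended prior, leaving out genes that nowhere exceeded 1 TPM in a model's samples, and p-values were two-sided and adjusted by Benjamini-Hochberg over all genes of the model (called at an adjusted p of 0.05). Fold changes on this scale understate the change of genes with low values. The 5 models covered the central domains, the hemizygous and null genotypes, the homozygous genotypes, the paired domain experiment and the T-lineage stages, and the models of hemizygous and homozygous genotypes held a read length term. Standard deviations are over samples. As an alternative, whole reads recovered from the TPM values (100% of values tested came out whole within 0.001 read) were tested with edgeR 4.0.16 over 16745 genes. The depth of the lymphoid libraries is unknown. Scripts were tested on simulated data.

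The genes named are all 7 members, the called genes of the pathway, neighbour and marker lists (at most 6 per list and comparison, by size), and for each member the 3 genes (pro-B table) or 2 genes (lymphoid table) with the highest Pearson correlation. The members and all lists were chosen with earlier results of these data known. Some results of the series, among them 1 of the genes this rule names, are not reported here.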

Additional observations from a re-analysis of the deposited data

Results flagged for a closer look

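One value stood apart from its group. *Il18rap* in wild-type pro-B cells was 3.20 TPM in replicate 4, and the next highest of the 5 samples was 1.21 TPM, a gap of 0.944 of the whole range. Of 7 groups of 5 samples tested in this way, 1 per receptor gene, this was the 1 that exceeded the critical value. Chance alone exceeds it in about 5% of groups. The same sample had the highest sum over the 9 granulocyte and macrophage markers among the wild-type samples (5083 TPM, against a median of 733 TPM) and the highest *Il18r1* (0.382 TPM) and *Il2rb* (2.45 TPM), and the part of other cells in these values was not tested.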

How the results depend on the processing

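Of the member tests, limma called 0 among the central domains, 16 among the hemizygous and null genotypes, 7 among the homozygous genotypes, 13 in the paired domain experiment and 21 in the T-lineage stages. When each sample was left out in turn, these counts were 0 to 0, 11 to 16, 3 to 7, 11 to 13 and 17 to 21, and the lowest count for the homozygous genotypes came without wild-type replicate 3 or ∆CRD1,2/∆CRD1,2 replicate 2. edgeR on recovered reads called 0, 19, 7 and 13 in the first 4 models. The fits of samples with 50-nt reads alone were added after seeing the data. No called difference changed sign under any alternative. Of uncalled tests, 11, 10, 13, 1 and 6 changed sign at least once.

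The replicate numbers of the labels were not taken as pairs, because same-numbered samples did not deviate together in every pair of groups: correlations were over 0.1 in 6 of 10 pairs of groups in the hemizygous model (−0.29 to 0.34), 14 of 21 in the homozygous (−0.18 to 0.34), 1 of 3 in the paired domain (−0.22 to 0.14) and 3 of 6 in the T-lineage model (−0.01 to 0.28). With a replicate block, without wild type 3 to 5 and the read length term, *Il2ra* in ∆CRD2/∆CRD2 against wild-type cells was −1.38 in log2 (adjusted p = 0.0209, 0.85 as reported) and *Il2rb* was 1.81 (adjusted p = 0.0360, −0.04 as reported). In that fit the wild type has 50-nt and the mutant 100-nt reads. The same fit lost the calls of *Il2ra* and *Il2rb* in ∆CRD1/- (adjusted p = 0.295 and 0.375), *Il2rg* in ∆CRD1,2/- (0.134) and *Il2rb*, *Il2rg* and *Il4ra* in ∆CRD1,2/∆CRD1,2 cells (0.529, 0.0663 and 0.162). It added calls for *Il18rap* in ∆CRD1/- against wild-type (0.0232) and in ∆CRD1,2/∆CRD1,2 against ∆CRD1/∆CRD1 cells (0.00606), and for *Il18r1*, *Il18rap* and *Il21r* in fl/fl against ∆CRD1,2/- cells (0.0142, 0.0279 and 0.0239). Because it also leaves out samples and the read length term, the part of the block itself was not separated. In the T-lineage stages the replicate block lost the calls of *Il21r* in DN3b and in Rag2-/- against DN3a cells (0.0562 and 0.0548). For the central domain model, no paired analysis was possible because its wild-type samples are numbered 3 and 4 and the mutants 1 and 2. In the DN groups some samples share a number.

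Genes under about 1 TPM rest on few reads, and 2 samples per group leave wide intervals. In the T-lineage table, keeping the placeholder value of 1 turned the step of *Il18r1* from DN2b to DN3a to −0.35 (adjusted p = 0.770).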

Other observations

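*Il9r*, the ligand-specific chain of the IL-9 receptor, was called in the homozygous CRD1 deletion, where none of the 7 receptor genes was. It had means of 0.288 TPM in wild-type, 9.43 TPM in ∆CRD1/∆CRD1 (log2 difference 4.57, adjusted p = 1.797e-04, limma), 29.3 TPM in ∆CRD1,2/∆CRD1,2 (6.35, adjusted p = 7.737e-06) and 2.86 TPM in ∆CRD1,2/- cells (3.02, adjusted p = 0.00879), and it was lower in the hemizygous than in the homozygous double deletion (−3.33, adjusted p = 0.0433). *Il1r1*, the signalling IL-1 receptor on chromosome 1, was lower in ∆CRD1,2/∆CRD1,2 than in wild-type cells, with 0.0713 against 1.43 TPM (−2.81, adjusted p = 0.00187).

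In the T-lineage stages, *Il7r* had means of 4.02 TPM in LMPP, 11.3 TPM in DN1, 52.8 TPM in DN2a, 62.3 TPM in DN2b, 82.6 TPM in DN3a and 31.7 TPM in DN3b cells, and *Il1r1* had means of 40.1 TPM in DN1, 6.13 TPM in DN2a and 0.730 TPM in DN2b cells. Of 15 JAK-STAT genes tested between DN3a and DN3b, 10 were lower and 0 higher in DN3b cells, where 39.2% of all genes were called lower. *Cish*, a target gene of STAT5, fell there from 96.8 to 4.56 TPM (log2 difference −4.40).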
